A study of Mus musculus with 36 samples.

Results

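The 46 genes described here are listed replication and mitosis genes, 20 of S phase and 26 of G2/M phase, among 34197 gene rows of a UMI count table. They were taken from a list and not by their values in these samples. All 46 had a row in the table, and 45 passed the filter on low counts and were tested. The exception was Fen1, the flap endonuclease that trims Okazaki fragments, with 11 counts in all over the 36 libraries and 0 to 2 in any of them. The samples were mouse (C57BL/6) duodenal organoids kept on a microfluidic chip in the presence of EGF, Noggin and R-spondin 1. The gamma-secretase inhibitor DAPT, which stops the cleavage that activates Notch, was given in pulses with a period of 90 min (1.38 µM), 130 min (2 µM) or 170 min (2.6 µM, with 2 µM also named), and the reference was DMSO. Organoids were harvested after 24, 48 or 72 h, having been passaged 3, 2 or 1 days before the start, respectively. Duration and the time from passage to the start thus cannot be told apart, nor can period and dose. Each of the 12 groups had 3 libraries made from 20 to 50 organoids apiece. The labels do not say whether DMSO was pulsed. They also do not say that replicates are separate cultures or mice, and the p-values then rest on a spread between samples that may be technical.

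A dividing cell copies its DNA in S phase and segregates it in mitosis after G2. The genes of the first step, many of them switched on by E2F factors at the end of G1, encode the replicative helicase, the sliding clamp and the enzymes that make nucleotides. The genes of the second step peak later, often through promoters with CCAAT boxes and the cell cycle genes homology region (CHR), and encode cyclin B with its kinase, the mitotic kinases, spindle and kinetochore proteins and the ubiquitin ligase parts that end mitosis. In the small intestine, stem cells and transit-amplifying cells of the crypt cycle, whereas enterocytes and most secretory cells have left the cycle. Notch signalling keeps crypt progenitors undifferentiated.

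The promoters show how the S and G2/M genes differ in sequence before any level is read. RefSeq promoter windows (GRCm38.p6, 250 bases before to 50 after the gene start) were matched for 38 of the 46 members, which gave 42 promoters since some genes have more than 1. Both strands were searched for E2F-like letters (the word TTGGCGC, the word TTCCCGC, the word TTGCCGC or the word TTCGCGC), CHR-like letters (the word TTTGAA or the word TTCGAA) and CCAAT. On the opposite strand TTGGCGC can share bases with CCAAT, and such a stretch counts for both. E2F-like letters were in 13 of 19 S promoters (68.4%) and 7 of 23 G2/M promoters (30.4%), against 9.57% of all 32851 promoters in the table. CHR-like letters were in 18 of 23 G2/M promoters (78.3%) and 3 of 19 S promoters (15.8%), against 19.2% of all promoters. CCAAT was in 19 of 23 G2/M promoters (82.6%) and 13 of 19 S promoters (68.4%), against 37.4% of all. In the 200 bases before the start alone, CHR-like letters were in 11 of 23 G2/M promoters (47.8%), 3 of 19 S promoters (15.8%) and 13.4% of all. E2F-like letters there were in 10 S (52.6%) and 4 G2/M promoters (17.4%), against 6.79% of all. These are matches to letters, not measured sites.

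The last 200 bases before the gene start are printed for 2 well-known S genes and 3 well-known G2/M genes, and for Cdk1 and Tacc3, which were added after their values were seen because the comparisons below turn on them. The windows, 5′ to 3′ along the gene, are Mcm6 at chr1:128359706-128359905 (minus strand), Rrm2 at chr12:24708054-24708253 (plus strand), Ccnb1 at chr13:100786487-100786686 (minus strand), Ccnb2 at chr9:70421555-70421754 (minus strand), Cdc20 at chr4:118437344-118437543 (minus strand), Cdk1 at chr10:69352913-69353112 (minus strand) and Tacc3 at chr5:33657928-33658127 (plus strand). Capitals mark the searched letters on either strand.
Mcm6: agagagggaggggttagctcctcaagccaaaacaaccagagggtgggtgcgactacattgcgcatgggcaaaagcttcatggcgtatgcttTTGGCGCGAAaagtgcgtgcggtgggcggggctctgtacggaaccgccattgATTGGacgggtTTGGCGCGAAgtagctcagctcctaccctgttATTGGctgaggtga
Rrm2: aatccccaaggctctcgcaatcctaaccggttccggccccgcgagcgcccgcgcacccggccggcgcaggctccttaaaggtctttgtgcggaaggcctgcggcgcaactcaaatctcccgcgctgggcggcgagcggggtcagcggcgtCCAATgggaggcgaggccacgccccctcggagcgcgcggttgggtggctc
Ccnb1: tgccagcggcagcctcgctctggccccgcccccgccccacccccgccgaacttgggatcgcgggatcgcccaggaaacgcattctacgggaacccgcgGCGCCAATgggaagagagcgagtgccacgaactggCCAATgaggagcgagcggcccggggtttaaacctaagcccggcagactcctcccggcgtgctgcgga
Ccnb2: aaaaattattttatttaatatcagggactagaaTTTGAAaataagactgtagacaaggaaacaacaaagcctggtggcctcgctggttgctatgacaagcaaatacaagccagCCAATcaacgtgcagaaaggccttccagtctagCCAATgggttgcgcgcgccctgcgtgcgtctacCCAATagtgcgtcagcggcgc
Cdc20: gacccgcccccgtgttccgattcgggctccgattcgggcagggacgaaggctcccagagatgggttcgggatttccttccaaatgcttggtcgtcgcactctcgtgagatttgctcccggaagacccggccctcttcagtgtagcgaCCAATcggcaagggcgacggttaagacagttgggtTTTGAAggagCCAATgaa
Cdk1: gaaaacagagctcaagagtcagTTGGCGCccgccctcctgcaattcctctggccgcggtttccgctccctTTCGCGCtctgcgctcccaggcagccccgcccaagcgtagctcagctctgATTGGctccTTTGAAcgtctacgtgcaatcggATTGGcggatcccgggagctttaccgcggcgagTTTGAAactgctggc
Tacc3: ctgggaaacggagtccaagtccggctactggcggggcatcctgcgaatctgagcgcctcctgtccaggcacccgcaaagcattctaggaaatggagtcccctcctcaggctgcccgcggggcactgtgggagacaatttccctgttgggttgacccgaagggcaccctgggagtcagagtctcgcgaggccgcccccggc
The Mcm6 window held 4 E2F-like matches, as pairs that overlap, and 2 CCAAT matches. Cdk1 held all kinds, with 2 E2F-like, 2 CHR-like and 2 CCAAT matches. The Cdc20 window had its CHR-like match 18 bases before the start and CCAAT 53 and 8 bases before it. In Ccnb1 the E2F-like match overlaps 1 of the 2 CCAAT matches, with no CHR-like match in the window. The Rrm2 window held 1 CCAAT match and no E2F-like match. None of the searched letters was in the printed Tacc3 window. In the longer windows used for the percentages, Rrm2 and Tacc3 each had 1 E2F-like match.

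Library totals ran from 482741 to 1447330 counts with a median of 958749. Levels of genes are given as CPM, counts scaled to equal TMM library size, while sums of marker lists use plain library totals. Epithelial markers (Epcam, Cdh1, Vil1 and others) summed to 1930 to 2800 CPM in every library, whereas the fibroblast list summed to 0 to 38.5, the immune list to 1.37 to 15.4 and the endothelial list to 0 to 9.18 CPM. Markers of other tissues were thus near 0, while every library held transcripts of dividing cells. The 46 members took 0.535 to 0.754% of all counts, with a median of 0.62%. S members alone took 0.204 to 0.279% and G2/M members 0.331 to 0.475%.

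The libraries were ordered by a score for each list, its tested members averaged as log2(CPM + 1). The S score ran from 6.51 to 6.89 and the G2/M score from 6.84 to 7.36. The highest values of both belonged to DMSO libraries. Replicate 3 of DMSO at 48 h had an S score of 6.89 and a G2/M score of 7.36, and replicate 1 of DMSO at 24 h had 6.89 and 7.35. The next G2/M score, 7.22, came from replicate 2 of 130 min at 72 h. Replicate 3 of DMSO at 48 h was the highest of the 12 libraries of its duration for 10 of 19 S and 21 of 26 G2/M members. Replicate 1 of DMSO at 24 h was the highest of its 12 for 9 S and 19 G2/M members. The lowest scores, 6.51 for S and 6.84 for G2/M, were those of replicate 3 of 130 min at 24 h.

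Other measures of these libraries are given beside the scores. A fit with the library total is given with the comparisons, and the part of the others in the results was not tested. Replicate 1 of DMSO at 24 h had the lowest total, 482741 counts, and the highest mitochondrial share, 1.48% against a median of 1.09%. Replicate 3 of DMSO at 48 h had an enterocyte marker sum (Alpi, Apoa1, Fabp1, Sis and others) of 1250 CPM, where the sums of all libraries ran from 980 to 6260 with a median of 3150. Replicate 2 of 130 min at 72 h had the lowest enterocyte sum, 980 CPM, and replicate 3 of 130 min at 24 h the highest, 6260 CPM. Replicate 1 of DMSO at 24 h had 2990 CPM, near the median. Replicate 2 of 170 min at 72 h also had a low enterocyte sum, 1780 CPM, while its G2/M score of 7.04 was near the median of 7.05. Stem cell markers (median 1860 CPM) summed to 1140 CPM in replicate 2 of 130 min at 72 h, 1560 CPM in replicate 3 of DMSO at 48 h, 2200 CPM in replicate 1 of DMSO at 24 h and 1550 CPM in replicate 3 of 130 min at 24 h. The immune and endothelial sums stayed under 16 CPM in all of these libraries. In bulk RNA, fewer dividing cells and less cell cycle RNA in each dividing cell cannot be told apart.

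**Figure D1:**
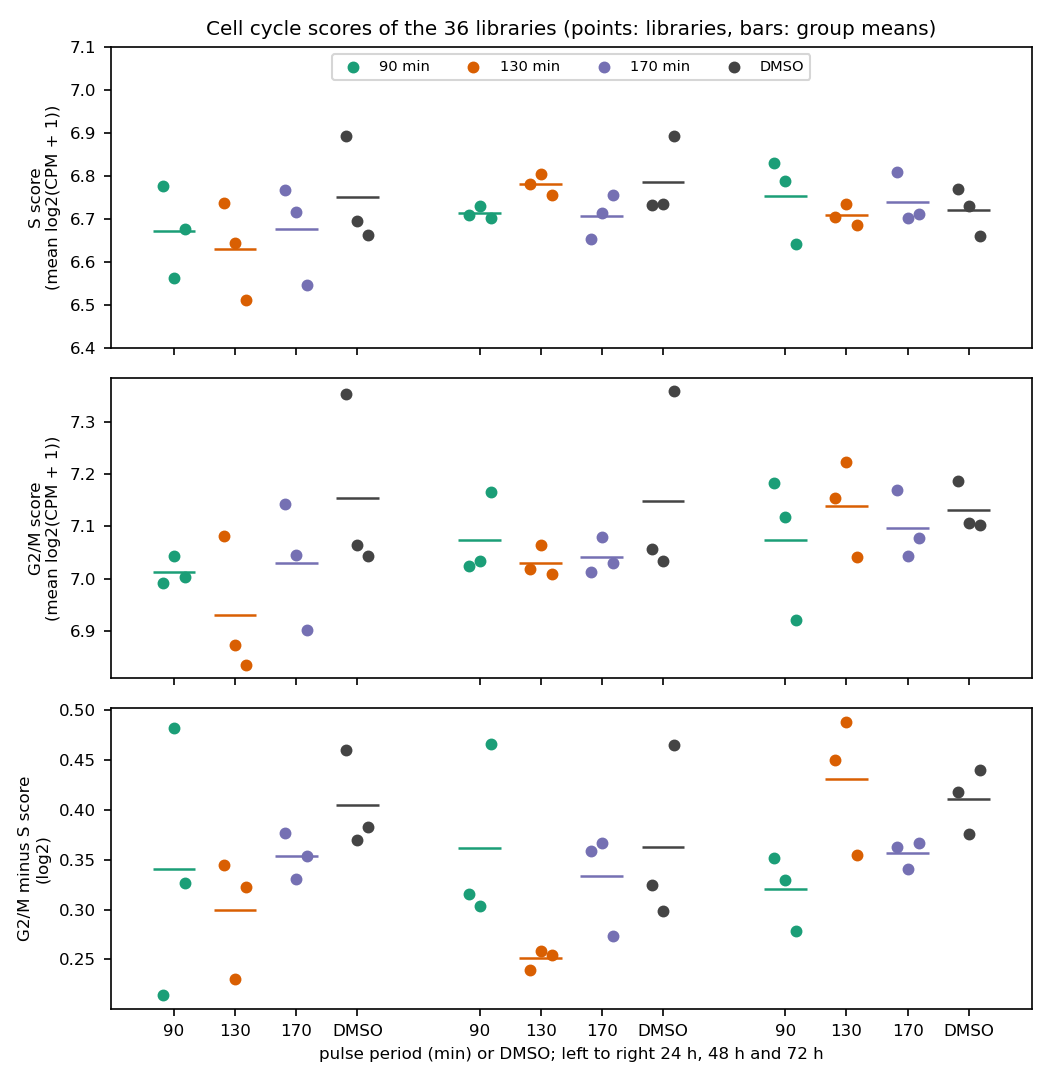
S score, G2/M score and their difference (y axes, log2 units) in each of the 36 libraries, grouped on the x axis by duration (24, 48 and 72 h) and, within it, by period or DMSO; points are libraries and bars group means. The highest S and G2/M scores are 1 DMSO library at 24 h and 1 at 48 h, and replicate 3 of 130 min at 24 h is the lowest in both.

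The members did not move as 1 block within these libraries. In replicate 1 of DMSO at 24 h, Cdk1, the mitotic kinase, stood at 534 CPM against 302 to 432 CPM in the 27 DAPT libraries, and Mcm6, a helicase subunit, at 296 CPM against 174 to 231 CPM. Yet the same library was the lowest of all 36 for Slbp, which binds histone mRNA, at 57.8 CPM, and had 46.2 CPM of Anln, the contractile ring protein anillin, near the low end of its range of 43.6 to 115 CPM. In replicate 3 of 130 min at 24 h the kinetochore motor Cenpe and its partner Cenpf both had 52 CPM, the lowest of all libraries, against medians of 97.1 and 100 CPM over the 36. Ect2, the exchange factor that starts cytokinesis, had 63.7 CPM there against a median of 122 CPM. In that library Cdk1 had 381 CPM and Ube2c, an enzyme of the ligase that degrades cyclin B, 236 CPM, both above their medians of 347 and 183 CPM. The low values rest on few counts, 25 for Slbp and 20 for Anln in the DMSO library. Cenpe and Cenpf had 31 counts each and Ect2 38 in the 130 min library, which had 656157 counts in all. The genes given as high had 128 to 231 counts. The part of counting error in these differences was not tested. Low and high genes of single libraries, here and in the next paragraph, were named after their values were seen.

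A different set was low in replicate 2 of the same group. Cdc20, the activator of the ligase that starts anaphase, had 42.4 CPM there against 80.3 and 83.8 CPM in the other 2 libraries of 130 min at 24 h. Plk1, a kinase of spindle assembly, had 104 CPM against 181 and 206 CPM, and Aurka, the spindle pole kinase, 49.5 CPM against 82.5 and 82.2 CPM. Mcm5, another helicase subunit, had 71.7 CPM against 147 and 104 CPM. For Cdc20, Plk1, Aurka and Mcm5 this library was the lowest of all 36, while its Ect2, at 141 CPM, was the highest.

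**Figure D2:**
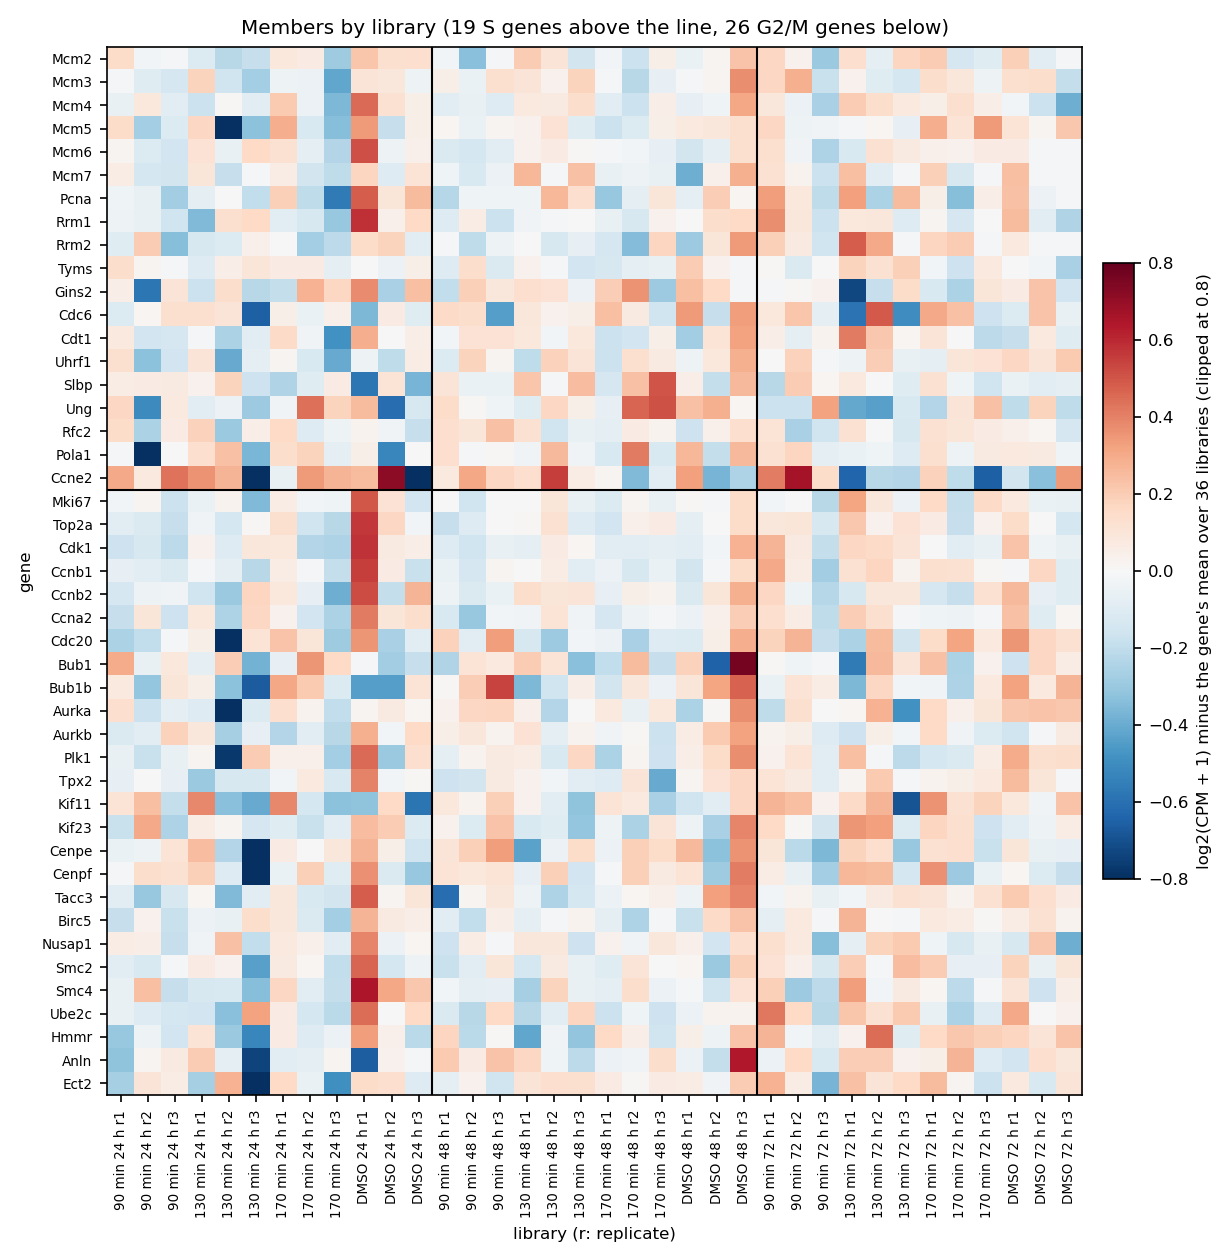
Level of the 45 tested members (rows, S above the line and G2/M below) in the 36 libraries (columns, ordered by duration, period and replicate, DMSO last in each duration), as log2(CPM + 1) minus the gene's mean and clipped at 0.8. Replicate 1 of DMSO at 24 h and replicate 3 of DMSO at 48 h are red for most genes, and replicates 2 and 3 of 130 min at 24 h are each blue for a different set.

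Whether pulsed DAPT changed the cell cycle genes was asked first over all periods and durations. In the edgeR quasi-likelihood test with Benjamini-Hochberg adjustment over all 11462 tested genes, 0 of 45 members passed an adjusted p of 0.05, as did 0 of all tested genes (0%), and DESeq2 called 0 members. Most members were nevertheless a little lower in the DAPT libraries. The median log2 change was -0.12 over the 26 G2/M members, with 24 of them negative, and -0.05 over the 19 S members, with 13 negative, against 0.00 over all tested genes. At an unadjusted p under 0.05, 9 G2/M and 2 S members were lower and 0 were higher. Over all tested genes 3.56% were lower and 3.11% higher at that level, so the G2/M share of 34.6% stood above the background and the S share of 10.5%, from 2 genes, is small in number. The 95% intervals of all 19 S and all 26 G2/M changes lay within 1.5-fold in either direction.

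This tilt was smaller by more than 1.5 times without the 2 DMSO libraries of highest score. They were picked for high scores and lie in the reference, so the direction of this shift, here and below, was fixed by that choice. Leaving them out also leaves fewer libraries for the p-values. Without both, the G2/M median was -0.04 with 17 of 26 negative and 1 member at an unadjusted p under 0.05, and the S median was -0.00 with 10 of 19 negative and 0 members. With the log2 library total as a covariate, the G2/M median was -0.05 and 3 members were lower at an unadjusted p under 0.05. With every library thinned to 482741 counts instead, the G2/M median was -0.12 with 22 of 26 negative and 5 members lower at that level. G2/M scores averaged 7.05 ± 0.09 at 90 min, 7.03 ± 0.12 at 130 min, 7.06 ± 0.08 at 170 min and 7.15 ± 0.13 in DMSO (SD, n = 9 each). S scores averaged 6.71 ± 0.08, 6.71 ± 0.09 and 6.71 ± 0.08 at 90, 130 and 170 min and 6.75 ± 0.09 in DMSO (SD, n = 9 each), and the ranges of all 4 treatments overlapped for both scores.

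**Figure D3:**
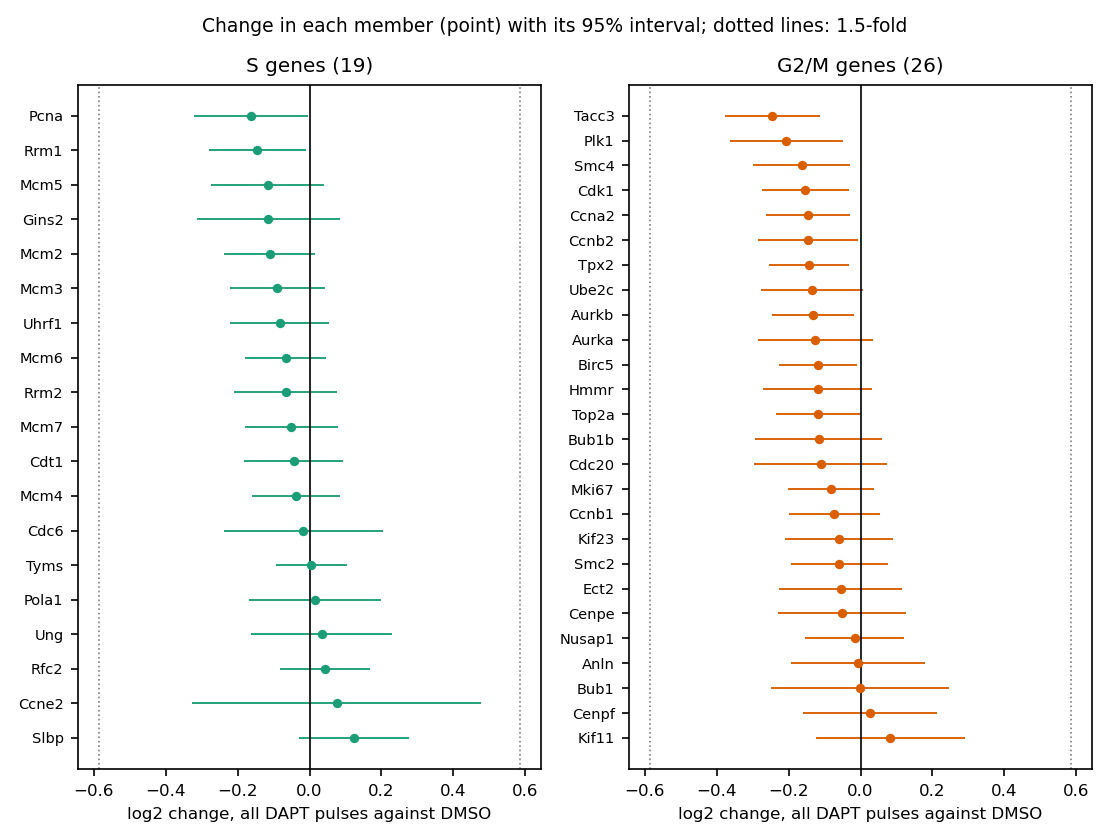
Log2 change of each tested member in all DAPT pulses against DMSO (x axis), with S genes on the left and G2/M genes on the right; points are edgeR estimates over 36 libraries and bars their 95% intervals. Tacc3 is the lowest at -0.25, and every interval lies inside the dotted lines at 1.5-fold.

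Among the S genes, the helicase subunits Mcm2 to Mcm7, which open the DNA at the fork, had log2 changes between -0.12 for Mcm5 and -0.04 for Mcm4. Mcm2 had a lowest, median and highest level of 105, 131 and 153 CPM in the 27 DAPT libraries and 125, 145 and 156 CPM in the 9 DMSO libraries. Mcm6 had 174, 206 and 231 CPM in DAPT libraries and 187, 206 and 296 CPM in DMSO libraries. The ranges overlapped for both, and the Mcm6 medians were equal.

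The clamp Pcna, which holds polymerases on DNA, had 93.3, 135 and 175 CPM (lowest, median and highest) in DAPT libraries and 132, 148 and 194 CPM in DMSO libraries. Its log2 change was -0.16 with an SE of 0.08 (edgeR adjusted p = 0.738). Rrm1, the large subunit of ribonucleotide reductase, had 109, 136 and 181 CPM in DAPT libraries and 118, 154 and 210 CPM in DMSO libraries. Its log2 change was -0.14 with an SE of 0.07 (edgeR adjusted p = 0.706). Pcna and Rrm1 were the S members with the smallest p, and their groups overlapped.

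The other enzymes of nucleotide supply gave changes closer to 0. Rrm2, the subunit of ribonucleotide reductase that is made only in cycling cells, had 233, 293 and 415 CPM (lowest, median and highest) in DAPT libraries and 242, 313 and 376 CPM in DMSO libraries. Tyms, which makes thymidylate, averaged 127 ± 9.43 CPM in DAPT libraries (SD, n = 27) and 127 ± 10.3 CPM in DMSO libraries (SD, n = 9). Its log2 change was 0.00 with a 95% interval from -0.09 to 0.10.

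The genes that license and fire origins did not share a direction. Log2 changes were -0.12 for Gins2 of the helicase complex, -0.04 for the licensing factor Cdt1, -0.02 for its partner Cdc6 and 0.02 for Pola1, the primase-associated polymerase. Rfc2 of the clamp loader had 0.04 and Ung, which removes uracil from DNA, 0.03. Slbp had the highest S change of the list, 0.12 with an SE of 0.08. Uhrf1, which carries DNA methylation through replication, had 84.6, 112 and 129 CPM (lowest, median and highest) in DAPT libraries and 97.3, 119 and 137 CPM in DMSO libraries. Ccne2, cyclin E2, was the thinnest tested member with 2 to 22 counts in a library. It had 3.35, 12.7 and 18.8 CPM in DAPT libraries and 3.84, 10.3 and 19.5 CPM in DMSO libraries.

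Among the G2/M genes, cyclins and their kinase were lower in DAPT libraries without passing the adjusted threshold. Cdk1 had 302, 341 and 432 CPM (lowest, median and highest) in DAPT libraries and 337, 372 and 534 CPM in DMSO libraries. Its log2 change was -0.15 with an SE of 0.06 (edgeR adjusted p = 0.706). Ccna2, cyclin A2, had a log2 change of -0.15 with an SE of 0.06, and Ccnb2, cyclin B2, -0.15 with an SE of 0.07. Ccnb1, cyclin B1, had 124, 149 and 186 CPM in DAPT libraries and 133, 150 and 222 CPM in DMSO libraries, nearly equal in the median.

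The lowest estimate of all members was that of Tacc3, which with Aurka and clathrin stabilises spindle microtubules. Tacc3 had 109, 160 and 177 CPM (lowest, median and highest) at 90 min, 130, 162 and 181 CPM at 130 min, 150, 170 and 181 CPM at 170 min, and 162, 183 and 233 CPM in DMSO. No library of 27 with DAPT exceeded 181 CPM, whereas DMSO libraries went down to 162 CPM, so the groups overlapped. The log2 change over all pulses was -0.25 with an SE of 0.07 and a 95% interval from -0.38 to -0.11, and its unadjusted edgeR p of 0.000647 became an adjusted p of 0.706. Over the alternatives run for all pulses against DMSO, its adjusted p in edgeR or DESeq2 stayed between 0.24 and 1. The block for library pairs, given below for 90 min, was not run for that comparison. Without the 2 DMSO libraries of highest score the Tacc3 change was -0.17. At 24, 48 and 72 h the Tacc3 changes were -0.36, -0.37 and -0.15 at 90 min, -0.33, -0.37 and -0.08 at 130 min, and -0.26, -0.23 and -0.05 at 170 min, nearest to 0 at 72 h in each. The 90 min value at 48 h was -0.18 without replicate 1 of 90 min, which had 109 CPM. At 90 min Tacc3 was lower than in the same-numbered DMSO library in 9 of 9 pairs. This direction comes from the same values that gave Tacc3 its small p, and is not separate support. With a block for library pairs, added after seeing the data, its 90 min change averaged over durations was -0.30 (edgeR adjusted p = 0.0758, or 0.249 with a block by number in all treatments).

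The mitotic kinases and spindle proteins gave a mixed picture. Plk1 had 104, 177 and 211 CPM (lowest, median and highest) in DAPT libraries and 145, 197 and 245 CPM in DMSO libraries, with a log2 change of -0.21 and an SE of 0.08 (edgeR adjusted p = 0.706). Aurkb, the kinase of the chromosome passenger complex, had a log2 change of -0.13 and Birc5, the survivin subunit of that complex, -0.12. Tpx2, which brings Aurka to the spindle, had -0.14 with an SE of 0.06 and Aurka itself -0.13 with an SE of 0.08. Kif11, the motor that pushes spindle poles apart, had the highest change of the G2/M list, 0.08 with an SE of 0.10. Nusap1, which bundles spindle microtubules, had -0.02.

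Chromosome and kinetochore genes had changes from -0.16 to 0.03. Smc4 of condensin had a log2 change of -0.16 with an SE of 0.07, its partner Smc2 -0.06, and Top2a, which untangles sister DNA, -0.12 with an SE of 0.06. Mki67, the coat protein of mitotic chromosomes, had 168, 211 and 267 CPM (lowest, median and highest) in DAPT libraries and 193, 216 and 303 CPM in DMSO libraries. Cenpf had 0.03, Cenpe -0.05, and the checkpoint kinases Bub1 and Bub1b -0.00 and -0.12. For the end of mitosis, Cdc20 had 42.4, 76.5 and 98.5 CPM in DAPT libraries and 64.9, 84.6 and 99.6 CPM in DMSO libraries, and Anln and Ect2 had log2 changes of -0.01 and -0.05.

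**Figure D4:**
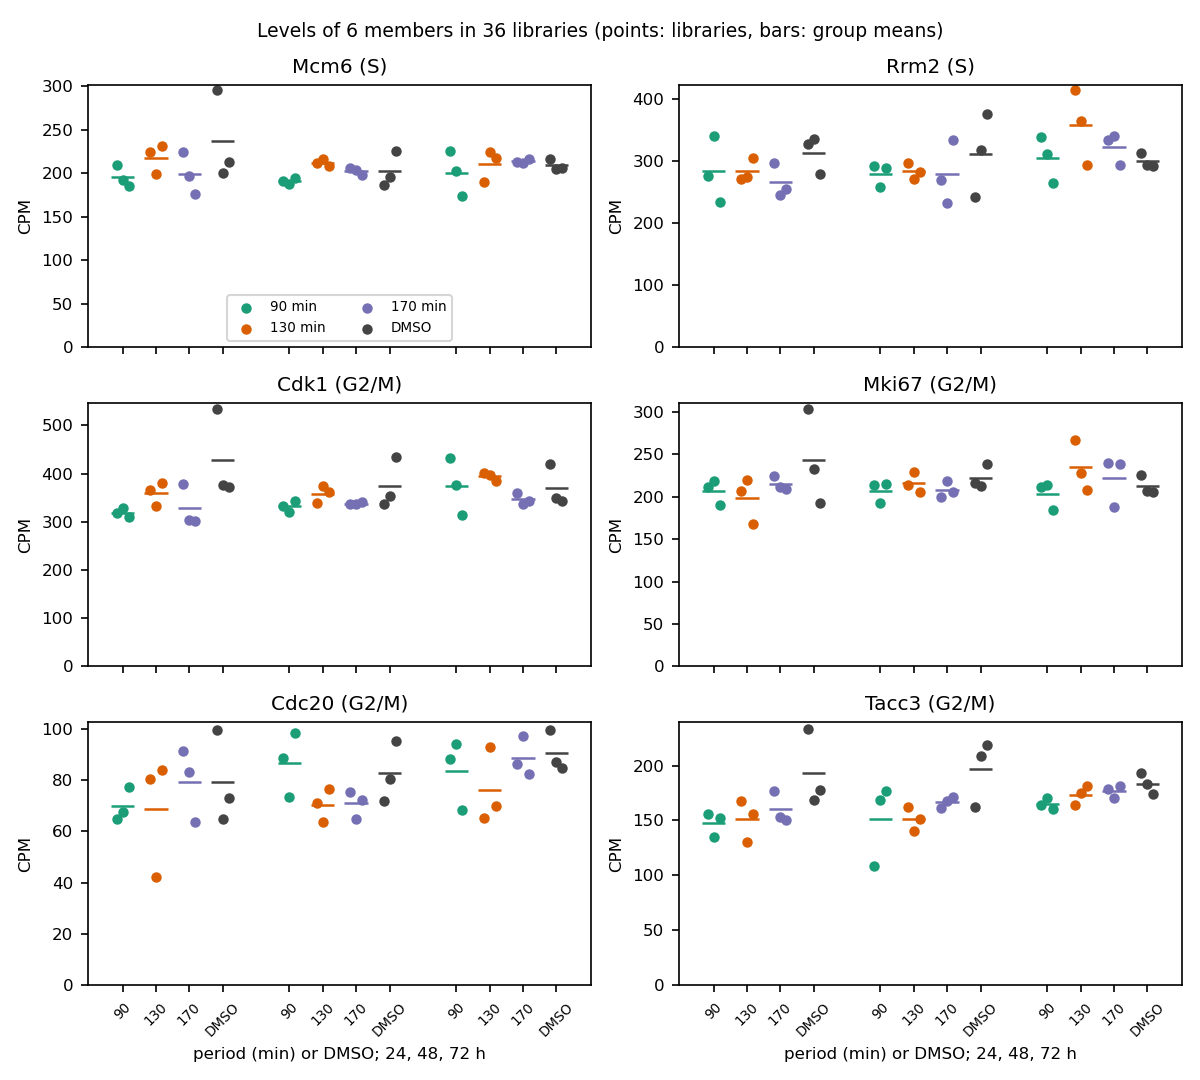
CPM (y axes, from 0) of 2 S genes (Mcm6, Rrm2) and 4 G2/M genes (Cdk1, Mki67, Cdc20, Tacc3) in each library, by duration and, within it, period or DMSO; points are libraries and bars group means. Cdk1, Mcm6 and Mki67 have their highest point in 1 DMSO library at 24 h, and no DAPT library exceeds 181 CPM of Tacc3.

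Each period was then set against DMSO, averaged over durations. These comparisons share the 9 DMSO libraries and are given side by side. The edgeR test called 0 of 45 members at each period, against 0% of all tested genes at 90, 130 and 170 min, and DESeq2 called 0 members. The G2/M median log2 change was -0.09 at 90 min, -0.07 at 130 min and -0.08 at 170 min, and the S median was -0.07, -0.04 and -0.06. At an unadjusted p under 0.05, 7 G2/M members were lower at 90 min (background 4.34%), 4 at 130 min (background 2.77%) and 9 at 170 min (background 5.41%), with 2 S members at 170 min and 0 at each of the other periods. Without the 2 DMSO libraries these G2/M counts were 1, 2 and 0.

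The members with the smallest p differed in part between periods. Besides Tacc3 at -0.29 with an SE of 0.08, they were Ccna2 (-0.19) and Cdk1 (-0.19) at 90 min, all with an edgeR adjusted p of 0.571 or more. At 130 min Tacc3 had -0.26, Bub1b -0.25 and Aurka -0.24, with adjusted p-values of 0.663, 0.848 and 0.837. At 170 min Cdk1 had -0.20, Ccna2 -0.18 and Ube2c -0.22, each with an adjusted p of 0.537. Of the S genes, Pcna had -0.24 and Rrm1 -0.20 at 170 min, Mcm6 -0.13 and Pcna -0.17 at 90 min, and Mcm5 -0.19 and Slbp 0.14 at 130 min. Some of these rest on 1 library. Without replicate 2 of 130 min at 24 h, Mcm5 had -0.10 and Aurka -0.16 at 130 min. Without replicate 3 of DMSO at 24 h, Bub1b had -0.17 there, and without replicate 1 of DMSO at 24 h Mcm6 had -0.07 at 90 min. Slbp at 130 min had 0.11 without replicate 1 of DMSO at 24 h and 0.22 without replicate 2 of that group. The 95% intervals of the 45 tested members all lay within 1.5-fold at 130 and 170 min, and of all but Ccne2 at 90 min, where its interval ran from -0.16 to 0.78.

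Between pairs of periods, 0 members were called by edgeR or DESeq2, although DESeq2 gave no adjusted p for 35 members in 90 against 130 min and for 31 in 170 against 130 min. In edgeR the background was 0% in all 3 pairs, whereas DESeq2 called 18 of all genes in 90 against 130 min, 4 in 170 against 130 min and 0 in 170 against 90 min. At an unadjusted p under 0.05 in either direction there was 1 member in 90 against 130 min (background 11.8%), 1 in 170 against 130 min (background 12%) and 0 in 170 against 90 min (background 1.3%). Ung had the smallest p of these pairs. It had 55.7, 74.5 and 94 CPM (lowest, median and highest) at 170 min and 48.5, 61.5 and 73.9 CPM at 130 min, a log2 difference of 0.33 with an unadjusted edgeR p of 0.00648 and an adjusted p of 0.288. The ranges overlapped. Ung was higher at 170 min than in the same-numbered 130 min library in 9 of 9 pairs. This direction comes from the same values that gave Ung its small p, and is not separate support. With a block for library pairs, added after seeing the data, its difference was 0.34 (edgeR adjusted p = 0.136, or 0.27 with a block by number in all treatments). Bub1b was 0.25 higher on the log2 scale at 90 than at 130 min (adjusted p = 0.387 in edgeR). The largest list median in the 3 pairs, -0.03, was that of S members in 170 against 130 min.

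At single durations the lower G2/M levels were seen at 24 and 48 h and not evenly at 72 h. None of the 9 comparisons called a member in edgeR (0% of all genes in each), and DESeq2 also called 0, with no adjusted p for 38 members in 90 min against DMSO at 24 h, for 24 at 170 min and 24 h and for 2 at 130 min and 72 h. At 24 h the G2/M medians were -0.17, -0.22 and -0.16 at 90, 130 and 170 min, and the S medians -0.12, -0.10 and -0.12. At 48 h the G2/M medians were -0.07, -0.10 and -0.10, and the S medians -0.10, -0.03 and -0.11. At 72 h the G2/M medians were -0.06, 0.04 and -0.02, and the S medians 0.03, 0.02 and 0.03. At 24 h, 6 G2/M members were lower at an unadjusted p under 0.05 at each period, with 3 S members at 90 min (background 6.12%), 2 at 130 min (background 2.43%) and 3 at 170 min (background 8.17%). At 48 h and that level in either direction there were 1, 3 and 1 members at 90, 130 and 170 min, against 1.53%, 2.47% and 3.15% of all genes, and at 72 h 0, 2 and 1 members, against 0.995%, 10.3% and 2.17%. Without the 2 DMSO libraries, which lie at 24 and 48 h, the G2/M medians were -0.06, -0.10 and -0.03 at 24 h and 0.01, 0.02 and 0.02 at 48 h.

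**Figure D5:**
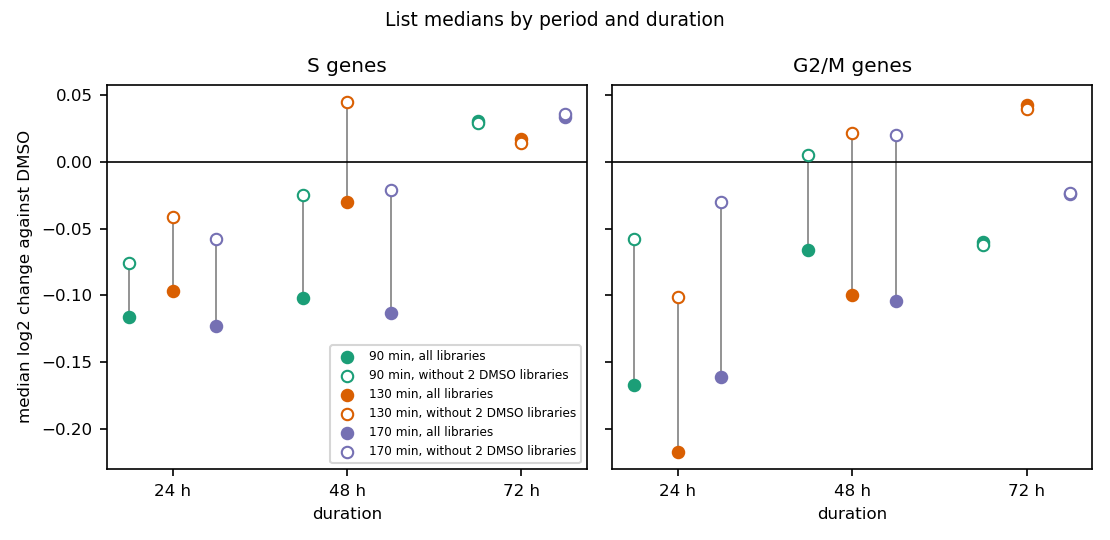
Median log2 change against DMSO (y axis) of the S genes (left) and G2/M genes (right) for each period at 24, 48 and 72 h; filled points use all libraries and open points leave out replicate 1 of DMSO at 24 h and replicate 3 of DMSO at 48 h. The open points lie above the filled ones at 24 and 48 h and at almost the same place at 72 h, where no library is left out. The 2 libraries were picked for their high scores, which by itself raises the open points.

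Smc4 had the smallest p of any member at a single duration. At 24 h it had 169, 170 and 146 CPM in the 130 min libraries and 291, 230 and 215 CPM in the DMSO libraries. All 3 values at 130 min were below all 3 of DMSO, and the log2 change was -0.57 with an SE of 0.14 (unadjusted p = 0.000348, adjusted p = 0.965 in edgeR). At 170 min the 24 h values were 208, 174 and 162 CPM, also below DMSO, and at 90 min 178, 219 and 163 CPM, where 219 lies between DMSO values. Without replicate 1 of DMSO at 24 h, the change at 130 min was -0.44. At 48 h Smc4 averaged 181 ± 28.3 CPM at 130 min and 184 ± 17.5 CPM in DMSO (SD, n = 3 each), nearly equal.

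Cdk1 at 24 h had 319, 328 and 309 CPM at 90 min and 534, 376 and 372 CPM in DMSO, with no overlap and a log2 change of -0.41 (SE 0.13, edgeR adjusted p = 0.458). Without replicate 1 of DMSO at 24 h that change was -0.23. Mcm4, a helicase subunit, had the reverse order at 72 h, with 204, 195 and 187 CPM at 130 min and 174, 157 and 135 CPM in DMSO. Those groups did not overlap either, and its log2 change was 0.33 with an SE of 0.13 (edgeR adjusted p = 0.388). Smc4, Cdk1 and Mcm4 were named for the smallest p of their list, which favours groups that do not overlap. How many of all genes had such groups was not counted. At 24 h Mcm4 had 157, 178 and 166 CPM at 130 min and 243, 193 and 183 CPM in DMSO, a log2 change of -0.28 with an SE of 0.13 (adjusted p = 0.965 in edgeR). Whether treatment and duration act together was tested by the interaction. It called 0 members in edgeR and DESeq2 (0% of all genes), and the smallest unadjusted p-values were 0.0401 for Mcm4 and 0.0422 for Smc4, both with an adjusted p of 1. In all, 1 S and 1 G2/M member had an unadjusted p under 0.05 in the interaction, against 2.37% of all genes.

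Across durations, averaged over the 4 treatments, the estimates of the cell cycle genes lay slightly above 0 at later times. The edgeR test called 0 of 45 members between 72 and 24 h, against 18 of all tested genes (0.157%), and 0 members between 48 and 24 h or 72 and 48 h (0% of all genes in both). DESeq2 called 0 members too, with no adjusted p for 38 members between 48 and 24 h. Between 72 and 24 h the G2/M median log2 change was 0.08 with 22 of 26 members positive, and the S median 0.03 with 13 of 19 positive, against -0.00 over all genes. At an unadjusted p under 0.05, 2 G2/M and 3 S members were higher between 72 and 24 h and 0 lower, where 14.8% of all genes passed that level in either direction. For 48 against 24 h, 2 members passed that level, both higher (background 9.63%), and for 72 against 48 h 2 were higher and 1, Ung, lower (background 12.6%).

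Hmmr, a hyaluronan receptor that also binds spindle microtubules, came closest to the threshold. It had 62, 84.9 and 113 CPM (lowest, median and highest) at 24 h, 66.8, 88.9 and 105 CPM at 48 h, and 83.7, 101 and 122 CPM at 72 h. Its log2 change between 72 and 24 h was 0.23 with an SE of 0.08 (edgeR adjusted p = 0.162). Uhrf1 had 84.6, 105 and 123 CPM at 24 h, 97.5, 118 and 137 CPM at 48 h, and 107, 121 and 130 CPM at 72 h. Its log2 change between 72 and 24 h was 0.19 with an SE of 0.07 (edgeR adjusted p = 0.203). For both genes the medians go up with time while the ranges overlap. Rrm2 had a log2 change of 0.17, Mcm5 0.18 and Cdc20 0.21 between 72 and 24 h.

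Within single treatments, the 72 against 24 h medians were above 0 in the DAPT arms and below 0 in DMSO, while the interaction called no member. At 130 min all 26 G2/M members were positive with a median of 0.20 and a range from 0.03 to 0.36, and the S median was 0.05. Without replicate 2 of 130 min at 72 h these medians were 0.13 and -0.01. At 90 min the G2/M median was 0.07 and at 170 min 0.08, with S medians of 0.07 and 0.11. In DMSO the medians were -0.05 for G2/M and -0.06 for S, and both turned, to 0.04 and 0.02, without replicate 1 of DMSO at 24 h. The edgeR test called 0 members in each arm, against 24 of all genes (0.209%) at 130 min and 0% in the others, and DESeq2 called 0 members. At an unadjusted p under 0.05 there were 0 members at 90 min (background 1.31%), 5 at 130 min (background 14.2%), 0 at 170 min (background 7.51%) and 3 in DMSO (background 5.81%). The 130 min arm holds the libraries with the lowest scores at 24 h (G2/M scores of 6.87 and 6.84 in replicates 2 and 3, and 7.08 in replicate 1) and scores of 7.04 to 7.22 at 72 h. In the DMSO arm Mcm4 and Smc4 had the smallest p between 72 and 24 h, with log2 changes of -0.40 and -0.39, and Bub1b had 0.44, each with an edgeR adjusted p of 0.843.

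The balance of the lists was compared between libraries as the G2/M minus the S score, which ranks libraries and says nothing of the levels of single genes. It averaged 0.34 ± 0.09 at 90 min, 0.33 ± 0.09 at 130 min, 0.35 ± 0.03 at 170 min and 0.39 ± 0.06 in DMSO (SD, n = 9 each). The ranges overlapped. At 130 min and 48 h the 3 libraries lay close together between 0.24 and 0.26, below the 3 DMSO libraries of 48 h at 0.30 to 0.46. At 130 min and 72 h they lay between 0.35 and 0.49, and in DMSO at 72 h between 0.38 and 0.44. By duration the difference averaged 0.35 ± 0.08 at 24 h, 0.33 ± 0.08 at 48 h and 0.38 ± 0.06 at 72 h (SD, n = 12 each).

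Spread between replicate libraries set how small a change could be seen. The median coefficient of variation of CPM within groups was 13.4% for G2/M and 12.9% for S members, against 8.66% and 9.36% from counting error alone. The biological coefficient of variation, the part beyond counting error, was largest for Ccne2 (0.155) and Cdc6 (0.134) among S members and for Kif11 (0.145) and Bub1 (0.144) among G2/M members. It was smallest for Tyms (0.0268) and Rfc2 (0.0489), and for Aurkb (0.033) and Birc5 (0.0581). These 4 genes had small spread beyond counting error.

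How the members vary together was described with Pearson's r of log2(CPM + 1) over the 36 libraries, after removing the mean of each of the 12 groups. All genes of a library share its depth and organoids, so these values carry no p. The median over pairs was 0.29 within the G2/M list (325 pairs), 0.16 within the S list (171 pairs) and 0.23 between the lists (494 pairs). The closest pair crossed the lists. It was Mcm6 with Cdk1, at 0.86, or 0.72 over 32 libraries when the 4 libraries described above (replicate 1 of DMSO at 24 h, replicate 3 of DMSO at 48 h, and replicates 2 and 3 of 130 min at 24 h) were left out. Cdk1 with Ccna2 had 0.82, and 0.81 over the 32. Most like Mki67 were Cenpf (0.76), Top2a (0.71) and Smc4 (0.70), whereas Cdc20 (0.03) and Aurka (0.01) were near 0 with it. Cdc20 with Plk1 had 0.73, which was 0.33 over the 32 libraries, so that value rests largely on the libraries that stand apart.

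Genes around the members in the pathway were read from further lists of regulators and machinery. In all DAPT pulses against DMSO, 0 were called by edgeR among 19 tested G1/S regulators, 6 CDK inhibitors, 40 other replication genes and 48 other mitosis genes (0% of all genes). The median log2 change was -0.01 for the G1/S regulators, 0.00 for the CDK inhibitors, -0.01 for the other replication genes and -0.04 for the other mitosis genes, 35 of which were negative. Cyclin D1 (Ccnd1), which starts the passage through G1, had a log2 change of 0.06 with an SE of 0.13, and E2f1, which drives S genes, 0.06 with an SE of 0.11. Between 72 and 24 h the lists also had 0 calls (background 0.157%). The gene closest to the threshold was Gtse1, a microtubule protein of G2 and mitosis, with a log2 change of 0.57 and an SE of 0.14 (edgeR adjusted p = 0.0681). Cdkn1a, the CDK inhibitor p21, had 0.31 with an SE of 0.12 (edgeR adjusted p = 0.227). Ccnd1, E2f1, Gtse1 and Cdkn1a were chosen after their values were seen.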

How the data were processed

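The authors deposited UMI counts per gene symbol for 36 Sort-seq libraries of polyadenylated RNA, and the submitters' processing notes name STAR 2.7.8a and UMI-tools 1.1.1. The genome build is not given in the sources used here, nor is the annotation or the way reads were assigned to genes. Tests used edgeR 4.0.16 in R 4.3.3 on the counts as deposited, with TMM, filterByExpr (11462 of 34197 genes kept, 22735 not tested), 1 coefficient for each of 12 groups (24 residual degrees of freedom), two-sided robust quasi-likelihood F tests and Benjamini-Hochberg adjustment over all tested genes, at a threshold of 0.05. The common biological coefficient of variation was 0.145. DESeq2 1.42.0 was an alternative. There were 24 comparisons. The scripts were tested on simulated data.

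Members, lists, tests and the 2 DMSO libraries left out together were chosen with earlier results of these data known. Genes named are a panel of 12, the members with the smallest p in each comparison, those with the extreme variation, and others said to be chosen after seeing values. Replicates differed by more than counting noise (chi-square per degree of freedom of 1.27 to 4.47), and 0 pairs were identical. Same-numbered libraries deviated together between 90 min and DMSO (correlations from 0.12 in all 9 pairs). They also did so between 130 and 170 min (from 0.21 in all 9 pairs). Between the other treatments the lowest correlations ran from -0.38 to -0.19, and at most 4 of 9 pairs exceeded 0.1. A fit with a block for the pairs of 90 min with DMSO and 130 with 170 min was therefore added after seeing the data. What such paired libraries share was not tested.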

Additional observations from a re-analysis of the deposited data

How the results depend on the processing

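The number of members called was 0 under every alternative, in each comparison for which it was run. They were RLE and upper quartile factors, no filter and a stricter filter, DESeq2, the log2 library total as covariate and thinning to 482741 counts. Others were 48 and 72 h alone, leaving out each library in turn, and leaving out the 2 DMSO libraries together. Not every comparison was run under each alternative, and in some comparisons DESeq2 gave no adjusted p for up to 38 members. Of the alternative list medians, 22 moved by more than the spread between libraries and 2072 did not, and the cause was not tested. That spread, the SD of library scores within groups, was 0.083 for S and 0.107 for G2/M. Many medians were themselves smaller than that, so a fall to 0 could count as not moved. With upper quartile factors, which moved the median of all genes by up to 0.116, the 24 h medians were -0.026 for S at 90 min, -0.013 for S at 170 min and -0.044 for G2/M at 170 min. With the library total as covariate they were -0.019, -0.029 and -0.033. Without the 2 DMSO libraries the G2/M medians at 24 h were -0.058, -0.101 and -0.030 at 90, 130 and 170 min, and at 48 h 0.022 at 130 and 0.020 at 170 min, with -0.021 for S at 170 min. Thinned, the S median at 90 min and 72 h was 0.137.

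Leaving out 1 library, the G2/M median at 24 h ranged from -0.240 to -0.056 at 90 min, -0.261 to -0.101 at 130 min and -0.223 to -0.028 at 170 min, each highest without replicate 1 of DMSO at 24 h, and the S median at 170 min from -0.224 to -0.026, highest without replicate 3 of 170 min. At 48 h it ranged from -0.152 to 0.024 at 130 min and -0.164 to 0.014 at 170 min for G2/M and -0.173 to -0.026 for S at 170 min, each highest without replicate 3 of DMSO. The S median of 72 against 24 h at 170 min ranged from 0.023 to 0.182. With a replicate block, by number or by library pair, 0 members were called and no other call changed.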
